A study of Homo sapiens with 12 samples.

Results

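The 10 genes described here encode the clamp loader that places the sliding clamp on DNA and the checkpoint proteins that watch over replication forks. They are RFC1, RFC2, RFC3, RFC4, RFC5, CLSPN, TIMELESS, TIPIN, CHEK1 and ATR. They were chosen by name from what the proteins do and not by a measured value, though with earlier results of these data known. All 10 were found among the 19460 genes of the deposited expression table. T-47D is an established, estrogen receptor-positive line of human breast cancer cells, labelled as wild type in its RNA libraries. Cells were kept for 24 h in either DMSO, the solvent control, or 1 µM palbociclib, a drug that blocks CDK4 and CDK6. RNA was measured by poly(A) RNA sequencing and open chromatin by ATAC-seq, each with 3 DMSO and 3 palbociclib libraries. The ATAC-seq titles call these biological replicates, and the RNA titles only number them as replicates. All libraries come from 1 cell line, and the ATAC-seq control medium held 0.1% DMSO.

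Replication factor C is a ring-shaped ATPase of a large subunit, RFC1, and the small subunits RFC2, RFC3, RFC4 and RFC5, and it opens the clamp PCNA and closes it around DNA at primer ends. The small subunits are shared with alternative loaders in which CHTF18, ATAD5 or RAD17 takes the place of RFC1. When a fork stalls, the kinase ATR is recruited to single-stranded DNA and phosphorylates CHEK1, the effector kinase, with claspin (the product of CLSPN) as the mediator and with the TIMELESS-TIPIN pair holding the mediator and the polymerases at the fork. CDK4 and CDK6 phosphorylate the retinoblastoma protein, and many genes of DNA replication are known targets of the E2F factors which that protein binds.

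The RNA libraries carried the markers of the label. All 8 luminal epithelial markers averaged at least 1 FPKM (fragments per kilobase of transcript, scaled for library depth), and their summed level was 5419 to 5939 FPKM in DMSO and 7312 to 8084 FPKM in palbociclib. Of the basal markers ACTA2 averaged at least 1 FPKM and TP63 did not, and of the fibroblast markers COL1A1 did and COL1A2 did not. The basal, fibroblast and blood cell lists each had 2 of 4 genes with a row in the table used, and the endothelial list 0 of 3. The basal genes with a row summed to 8.976 to 9.209 FPKM in DMSO and 8.572 to 9.231 FPKM in palbociclib. Those of the fibroblast list summed to 23.5 to 24.69 FPKM in DMSO and 24.11 to 26.33 FPKM in palbociclib. The blood cell genes that had a row were below 1 FPKM on average and summed to 1.003 to 1.586 FPKM in DMSO and 1.012 to 1.222 FPKM in palbociclib. RNA library pairs correlated at 0.9951 or more within a treatment and at 0.9711 or less between treatments. The markers of cycling cells, MKI67, TOP2A, CCNB1, MCM2 and CCNE2, summed to 481 to 497.4 FPKM in DMSO and to 56.75 to 60.61 FPKM in palbociclib, and all 5 were called lower; their part in the results below was not tested. These are bulk samples, so fewer cells in S phase and less RNA per cell cannot be told apart in any value below.

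Start regions of the members are shown for 7 genes, because the chromatin and RNA results differ between them: CLSPN had the largest RNA change, RFC3, RFC5 and RFC4 had start peaks that fell, and TIPIN, RFC1 and ATR had start peaks that were not called. Each line runs 5′ to 3′ on the strand of the gene, from 140 bases before the annotated start to 10 bases from it (RefSeq, GRCh38.p14). Capitals mark exact matches, on either strand, to the E2F spellings TTTCCCGC, TTTCGCGC, TTTGCCGC and TTTGGCGC, to the CHR letters TTTGAA, to CCAAT, to the GC box GGGCGG and to the cAMP response element TGACGTCA.
CLSPN, chr1:35769969-35770118, minus strand: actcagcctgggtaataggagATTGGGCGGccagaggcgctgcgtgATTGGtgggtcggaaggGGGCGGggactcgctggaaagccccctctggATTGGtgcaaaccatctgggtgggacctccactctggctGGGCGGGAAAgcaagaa
RFC3, chr13:33818009-33818158, plus strand: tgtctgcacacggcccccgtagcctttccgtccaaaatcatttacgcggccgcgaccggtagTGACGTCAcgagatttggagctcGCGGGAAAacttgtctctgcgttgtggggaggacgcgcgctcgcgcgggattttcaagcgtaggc
TIPIN, chr15:66356676-66356825, minus strand: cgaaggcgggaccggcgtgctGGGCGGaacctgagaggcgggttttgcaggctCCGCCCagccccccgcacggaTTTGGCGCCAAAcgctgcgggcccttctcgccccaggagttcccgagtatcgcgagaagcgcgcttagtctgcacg
RFC5, chr12:118016563-118016712, plus strand: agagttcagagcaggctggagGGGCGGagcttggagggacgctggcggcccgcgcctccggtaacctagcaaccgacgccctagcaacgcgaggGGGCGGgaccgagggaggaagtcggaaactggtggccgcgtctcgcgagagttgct
RFC4, chr3:186806473-186806622, minus strand: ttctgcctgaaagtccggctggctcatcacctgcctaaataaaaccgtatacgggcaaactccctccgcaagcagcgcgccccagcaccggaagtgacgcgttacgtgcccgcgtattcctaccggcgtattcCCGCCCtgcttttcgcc
RFC1, chr4:39366353-39366502, minus strand: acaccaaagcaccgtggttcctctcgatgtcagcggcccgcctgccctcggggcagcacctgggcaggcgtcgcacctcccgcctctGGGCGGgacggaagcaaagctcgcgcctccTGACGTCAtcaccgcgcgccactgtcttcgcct
ATR, chr3:142578724-142578873, minus strand: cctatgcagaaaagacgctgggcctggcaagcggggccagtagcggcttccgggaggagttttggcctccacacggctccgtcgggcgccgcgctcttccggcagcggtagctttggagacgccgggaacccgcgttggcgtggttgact

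An E2F spelling was present in the 300 bases around the start (250 before, 50 after) of 3 members, against 3.31% of the 35116 promoters in the RefSeq table. Here and below a member counts if any of its listed starts matched, while the shares are over single promoters. CLSPN held TTTCCCGC across its start, from 5 bases before it, where the match overlaps a GC box. RFC3 held the same letters 55 bases before its start, and these letters were found in 1.63% of all promoters. At the inner of the 2 listed starts of TIPIN, TTTGGCGC was read 66 and 62 bases before the start on opposite strands as an overlapping palindrome, and these letters were found in 0.652% of all promoters. CCAAT lay in the promoters of 6 members (34.6% of all promoters), with 3 matches in CLSPN and 3 at 1 of the 3 listed starts of CHEK1, and the GC box in 9 members (45.0% of all promoters). RFC1 and RFC3 held TGACGTCA (1.85% of all promoters), and no member held TTTGAA (15.2% of all promoters). A match describes letters only, and its use in these cells was not measured.

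RNA of all 10 members was lower after palbociclib, by 1.12-fold for ATR to 20.7-fold for CLSPN. Each passed limma's test with Benjamini-Hochberg adjustment over 15869 genes, and 7 of the 10 fell by at least 1 on the log2(FPKM + 1) scale. Over all genes tested, 22.9% were called lower, 20.9% higher and 3.04% lower by at least 1 on that scale. The median change of the members was -1.64, against 0.002 over all genes tested. In none of the 10 did any palbociclib library reach the lowest DMSO library; the same held, in this direction, for 28.2% of all genes tested.

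**Figure D1:**
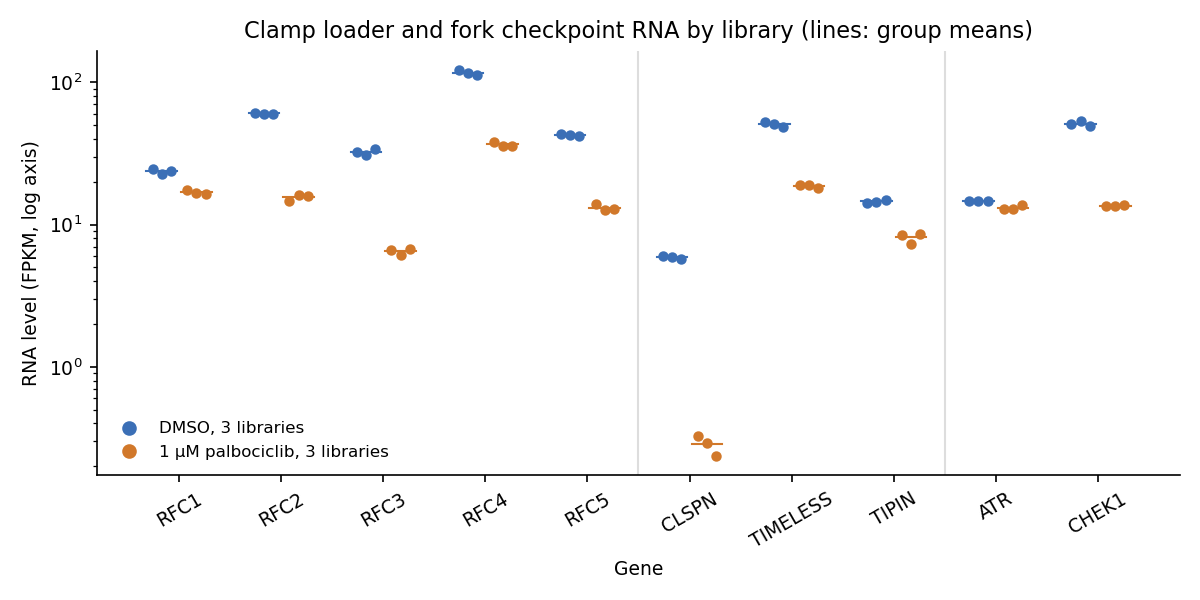
RNA level in FPKM (log axis) of each member in each library, with blue points for DMSO, orange points for palbociclib and lines for group means of 3 libraries. The groups separate in every gene, widely in CLSPN (means 5.911 and 0.2849 FPKM) and narrowly in ATR (means 14.73 and 13.16 FPKM).

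The 4 small subunits of the clamp loader fell to between 19.9% and 31.3% of their DMSO means, while the large subunit RFC1 fell to 71.2%. RFC4 (ENSG00000163918, chr3:186789900-186806482, minus strand), a small ATPase subunit, was the most abundant member per transcript length. It measured 122, 115.4 and 112.9 FPKM in DMSO and 38.34, 35.65 and 35.77 FPKM in palbociclib. No palbociclib library came near the DMSO libraries. The RFC4 means were 116.8 ± 4.72 and 36.59 ± 1.52 FPKM (SD, n = 3), a log2 change of -1.65 (SE 0.0429, limma adjusted p = 1.46e-08).

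RFC2 (ENSG00000049541, chr7:74231502-74254399, minus strand), another small subunit, measured 60.99, 59.93 and 60.31 FPKM in DMSO and 14.61, 16.07 and 15.86 FPKM in palbociclib. The DMSO libraries lay close to each other and far above the other group. The RFC2 means were 60.41 ± 0.536 and 15.51 ± 0.788 FPKM (SD, n = 3), a log2 change of -1.90 (SE 0.0426, limma adjusted p = 5.63e-09).

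RFC5 (ENSG00000111445, chr12:118016703-118041448, plus strand), also a small subunit, measured 43.59, 42.95 and 41.61 FPKM in DMSO and 13.84, 12.69 and 12.82 FPKM in palbociclib. Its groups were as clearly apart, and its log2 change was -1.63 (SE 0.0442, limma adjusted p = 1.93e-08). RFC3 (ENSG00000133119, chr13:33818149-33977377, plus strand) was the small subunit with the lowest RNA in both groups. It measured 32.55, 31.04 and 34.24 FPKM in DMSO and 6.64, 6.083 and 6.727 FPKM in palbociclib. Its 5.03-fold difference was the largest of the loader subunits, with a log2 change of -2.17 (SE 0.0545, limma adjusted p = 1.18e-08).

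RFC1 (ENSG00000035928, chr4:39287456-39366362, minus strand) had the smallest fall of the loader subunits. It measured 24.57, 22.61 and 23.94 FPKM in DMSO and 17.59, 16.61 and 16.42 FPKM in palbociclib, so that the groups did not overlap but lay close together. The log2 change was -0.47 (SE 0.0468, limma adjusted p = 8.83e-05). In DMSO every small subunit had more RNA per length than RFC1, whereas in palbociclib RFC1 was above RFC2, RFC5 and RFC3 and below RFC4. The log2 ratio of RFC1 to the geometric mean of RFC2 to RFC5 was -1.21, -1.29 and -1.22 in DMSO and 0.22, 0.20 and 0.14 in palbociclib. Its mean went from -1.24 ± 0.0389 to 0.19 ± 0.0411 (SD, n = 3), which is a ratio of 0.423 against 1.14. The difference of 1.43 had a two-sided exact permutation p of 0.1, the smallest that 3 against 3 libraries can give, and this p stayed 0.1 after adjustment over the 3 ratios compared.

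CLSPN (ENSG00000092853, chr1:35720213-35769978, minus strand), the mediator between ATR and CHEK1, had the largest fall of the members. It measured 6.035, 5.959 and 5.739 FPKM in DMSO and 0.3281, 0.289 and 0.2377 FPKM in palbociclib. The palbociclib libraries lay below the 0.5 FPKM minimum on the mean of all 6 libraries, so the gene was tested because of its DMSO values; it was also called with no such minimum. Its palbociclib mean was 4.82% of its DMSO mean. Adding 1 FPKM before taking logs understates such a change: the log2 change was -2.43 (SE 0.069, limma adjusted p = 2.57e-08) with 1 FPKM added and -3.97 with 0.1 FPKM added (limma adjusted p = 9.13e-08), and the authors' deposited table gives -4.39. CLSPN-DT starts 117 bases from CLSPN on the opposite strand, and LOC118567325 starts 330 to 462 bases from the listed starts of CHEK1 on the opposite strand. From these listed starts CLSPN and CLSPN-DT run apart without overlap. The gene span of CHEK1 begins at chr11:125625136, before the LOC118567325 start at 125625894, so their transcripts can overlap. The counting strand of the FPKM is not given in the sources used here. Reads of CHEK1 and LOC118567325 thus cannot be told apart where their transcripts overlap.

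The TIMELESS and TIPIN proteins work as a pair, and TIMELESS had more RNA per length than TIPIN in every library. TIMELESS (ENSG00000111602, chr12:56416363-56449426, minus strand) measured 52.57, 50.65 and 48.73 FPKM in DMSO and 19.09, 18.99 and 18.2 FPKM in palbociclib, with no overlap. Its log2 change was -1.39 (SE 0.0409, limma adjusted p = 3.3e-08).

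TIPIN (ENSG00000075131, chr15:66336191-66386717, minus strand) measured 14.28, 14.5 and 14.82 FPKM in DMSO and 8.488, 7.314 and 8.642 FPKM in palbociclib. Palbociclib replicate 2 was the lowest, and all 3 lay below DMSO. The log2 change was -0.77 (SE 0.0638, limma adjusted p = 2.86e-05). The palbociclib mean of TIPIN was 56.1% of its DMSO mean and that of TIMELESS 37%; the difference between these changes was not tested. The log2 ratio of CLSPN to the geometric mean of this pair was -2.18, -2.19 and -2.23 in DMSO and -5.28, -5.35 and -5.72 in palbociclib. The ratio itself went from 0.218 to 0.0229, a log2 difference of -3.25 (two-sided exact permutation p = 0.1, the smallest possible). With 1 FPKM added to each value this difference was -1.35, since the palbociclib values of CLSPN are far below 1 FPKM.

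Of the kinases, CHEK1 fell to 26.5% of its DMSO mean and ATR to 89.4%. CHEK1 (ENSG00000149554, chr11:125625136-125681124, plus strand), the effector kinase, measured 50.74, 53.33 and 49.29 FPKM in DMSO and 13.42, 13.4 and 13.81 FPKM in palbociclib. The groups were far apart, with a log2 change of -1.84 (SE 0.0408, limma adjusted p = 5.29e-09). ATR (ENSG00000175054, chr3:142449235-142578733, minus strand), the kinase that senses single-stranded DNA, measured 14.74, 14.75 and 14.7 FPKM in DMSO and 12.93, 12.9 and 13.66 FPKM in palbociclib.

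ATR was lower in every palbociclib library than in any DMSO library, with a narrow gap between the groups. Its log2 change was -0.15 (SE 0.0426, limma adjusted p = 0.0199). The ATR call was lost with quantile normalization (-0.06, limma adjusted p = 0.326) and with median centring (-0.06, limma adjusted p = 0.301). It was also lost without DMSO replicate 1 or 2 or palbociclib replicate 1 or 2 (limma adjusted p 0.054, 0.0556, 0.0635 and 0.0694). The log2 ratio of CHEK1 to ATR was 1.78, 1.85 and 1.75 in DMSO and 0.05, 0.06 and 0.02 in palbociclib. CHEK1 thus had 3.47 times the RNA of ATR per length in DMSO and 1.03 times in palbociclib, a log2 difference of -1.75 (two-sided exact permutation p = 0.1, the smallest possible).

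**Figure D2:**
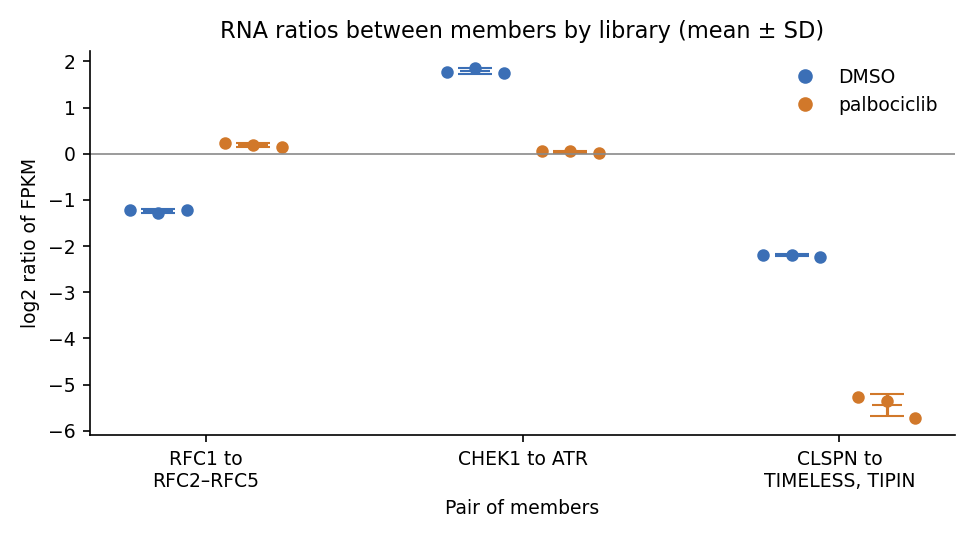
Log2 ratio of FPKM between members in each RNA library, with bars for the mean ± SD of 3 libraries. The mean RFC1 ratio went from -1.24 in DMSO to 0.19 in palbociclib, the CHEK1 to ATR ratio from 1.79 to 0.04, and the CLSPN ratio from -2.20 to -5.45.

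In DMSO the order of mean RNA level per length was RFC4, RFC2, CHEK1, TIMELESS, RFC5, RFC3, RFC1, ATR, TIPIN and CLSPN. The ranges of 2 neighbouring pairs overlapped, CHEK1 with TIMELESS and ATR with TIPIN. In palbociclib the order was RFC4, TIMELESS, RFC1, RFC2, CHEK1, ATR, RFC5, TIPIN, RFC3 and CLSPN, and CHEK1, ATR and RFC5 overlapped their neighbours among those 3. RFC1 moved from rank 7 to rank 3 and RFC3 from rank 6 to rank 9.

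The other genes of the pathway were read from 6 lists of 40 genes in all, of which 31 were lower and 1 higher, with a median log2 change of -0.84. Among the other clamp loaders and the clamp, 4 of 5 fell, with a median of -1.74. PCNA, the clamp, went from 200.8 to 32.49 FPKM (-2.59, limma adjusted p = 6e-10). CHTF18 (-1.74), DSCC1 (-2.73) and ATAD5, which unloads the clamp (-1.73), also fell. CHTF8, a small partner of CHTF18 and DSCC1 in their alternative loader, averaged 26.88 FPKM in DMSO and 27.39 FPKM in palbociclib (0.03, limma adjusted p = 0.715).

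The checkpoint clamp and its loader had a median of -0.29, and none of its 5 genes fell by 1 or more. RHNO1 (-0.87), RAD1 (-0.74) and RAD9A (-0.29) fell. RAD17, which replaces RFC1 in the loader of this clamp, averaged 16.73 and 15.76 FPKM (-0.08, limma adjusted p = 0.314). HUS1, a clamp subunit, averaged 14.46 and 13.68 FPKM (-0.07, limma adjusted p = 0.499).

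Of the genes for ATR activation and single-strand binding, 5 of 6 fell, with a median of -0.79. TOPBP1, an activator of ATR, fell by 1.15 on the log2 scale, and RPA1, RPA2 and RPA3, the subunits of the single-strand binding protein, had changes of -0.77, -0.80 and -1.07. ATRIP, the partner of ATR, changed by -0.26 (limma adjusted p = 0.00556). ETAA1, the other activator, changed by -0.16 and was not called (limma adjusted p = 0.0596). It was called lower by edgeR on counts rebuilt from FPKM (-0.21, adjusted p = 0.0232). Limma without an intensity trend also called it (limma adjusted p = 0.0251), and the authors' deposited table gives -0.21 (DESeq2 adjusted p = 0.0249). ATR and its partner thus had smaller changes than the subunits of the binding protein.

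Among the fork remodelling and repair genes 8 of 9 fell, with a median of -1.59. TONSL (-1.89), WDHD1 (-1.72), MMS22L (-1.70) and DONSON (-1.59) fell by more than 1, and PRIMPOL (-0.81), ZRANB3 (-0.67) and HLTF (-0.52) by less. SMARCAL1, a fork reversal enzyme, changed by 0.13 and was not called (limma adjusted p = 0.077), but was called higher with quantile normalization (0.22, limma adjusted p = 0.00864).

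All 7 effectors and parallel-branch genes fell, with a median of -2.00. These were PKMYT1 (-3.38), CDC25C (-2.55), CDC25B (-2.11), CDC25A (-2.00), WEE1 (-1.39), CHEK2 (-0.97) and ATM (-0.32). Both the kinases that restrain CDK1, WEE1 and PKMYT1, and the phosphatases that activate it were thus lower. ATM, the kinase of the double-strand break branch, lost its call with quantile normalization (-0.22, limma adjusted p = 0.0507).

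The genes for turnover of claspin and CHEK1 were the most mixed, with 4 lower, 1 higher and a median of -0.14. PLK1, which marks claspin for degradation, went from 73.62 to 6.053 FPKM (-3.40, limma adjusted p = 9.31e-10). USP1 (-1.36), USP28 (-0.47) and FZR1 (-0.25) fell, but FZR1 lost its call with quantile normalization (limma adjusted p = 0.123), with median centring, and without DMSO or palbociclib replicate 1 or 2 (limma adjusted p 0.0688 to 0.0838). FBXO6, an F-box protein known to target CHEK1, rose from 7.105 to 8.496 FPKM (0.23, limma adjusted p = 0.00637). BTRC (0.03), FBXW11 (0.10) and USP7 (-0.03) were not called, and FBXW11 was called higher under quantile normalization and median centring.

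**Figure D3:**
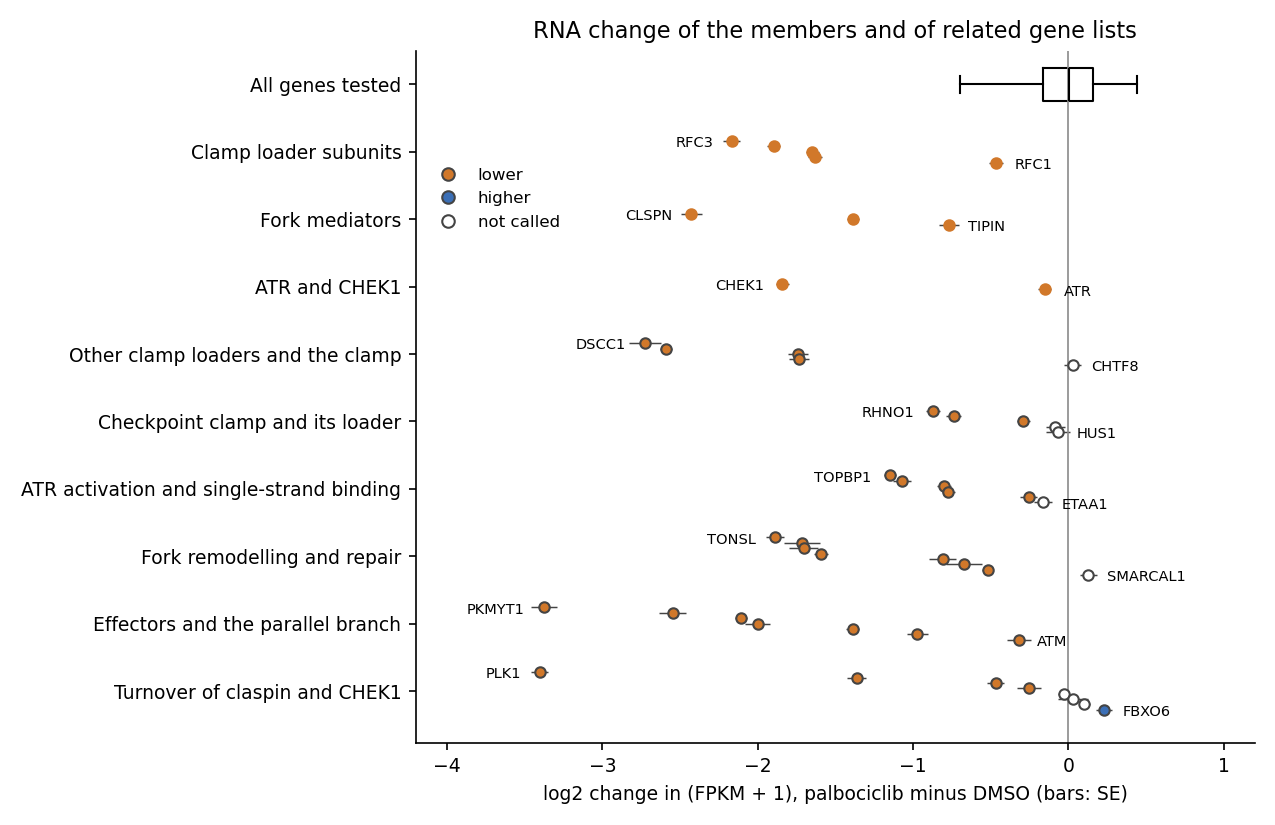
Log2 change in FPKM + 1 (palbociclib minus DMSO, bars for SE) of the members in 3 role groups and of 6 lists of related genes, with all genes tested as a box of quartiles and whiskers at the 5th and 95th percentiles. Filled orange points were called lower, blue higher and open points were not called; ATR, RAD17, HUS1 and CHTF8 lie near 0, and PKMYT1 and PLK1 lie below -3; 1 gene of the fork remodelling list is not drawn.

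The scaling of the libraries bears on the small changes. Of all genes called, 47.7% were higher as deposited, 61.6% after quantile normalization and 68.9% after median centring, which placed the median gene at 0.06 and 0.10. The 9 members other than ATR were called lower under each of these scalings.

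The genes whose profile over the 6 RNA libraries lay nearest to the median profile of the members, by Euclidean distance among 13770 candidates, were DSN1 (0.0934), SMC4 (0.111), H2AZ1 (0.12), MCM7 (0.13) and BORA (0.141). DSN1, a kinetochore protein, averaged 41.34 FPKM in DMSO and 12.79 FPKM in palbociclib. SMC4 is a condensin subunit, H2AZ1 a histone variant, MCM7 a helicase subunit and BORA a mitotic kinase activator; their RNA log2 changes lay between -1.71 and -1.67. These genes were chosen for likeness, so their changes are a description.

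For each member with an open chromatin peak at its start, the log2 change of that peak was smaller in size than that of its RNA. A listed peak lay within 1 kb of an annotated start of 6 members (60.0%), against 44.0% of 10994 RNA-tested genes with a listed start. RFC2, CHEK1, CLSPN and TIMELESS had no peak there in the table used. Of the 6 start peaks, 3 were lower and 0 higher by edgeR's quasi-likelihood test with Benjamini-Hochberg adjustment over 38121 peaks. Among 6411 peaks near any listed start 11.1% were lower and 1.86% higher, and among all peaks 6.46% were lower and 5.41% higher. Of all peaks called, 45.5% were higher with TMM and 55.9% with library totals, and the 3 start peaks were called lower with both. In 5 of the 6 every palbociclib library lay below every DMSO library, as in 22.9% of the peaks near a start and 14.2% of all peaks.

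All 3 lower peaks belonged to small loader subunits. The RFC5 peak (chr12:118016337-118017191) measured 84.1, 76.1 and 76.5 CPM (counts scaled to the library's reads in peaks after TMM adjustment) in DMSO and 54.8, 57.6 and 58.8 CPM in palbociclib. The groups were well apart, with means of 78.9 ± 4.46 and 57.1 ± 2.07 CPM (SD, n = 3). The log2 change was -0.47 (SE 0.0601, edgeR adjusted p = 2.49e-08).

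The RFC4 peak (chr3:186806187-186807023) measured 86.4, 79.3 and 87.2 CPM in DMSO and 69, 69.3 and 70.8 CPM in palbociclib. The groups did not overlap, and the log2 change was -0.27 (SE 0.0572, edgeR adjusted p = 0.000512). The RFC3 peak (chr13:33817748-33818743) was weaker, at 23.5, 21.8 and 24.8 CPM in DMSO and 19.3, 17.3 and 19.2 CPM in palbociclib. Its groups did not overlap either, and the log2 change was -0.33 (SE 0.0954, edgeR adjusted p = 0.0159). That call was lost without DMSO replicate 3 (edgeR adjusted p = 0.104) or palbociclib replicate 2 (edgeR adjusted p = 0.0782).

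The RFC1 peak (chr4:39365972-39366617) measured 18.8, 17 and 18.9 CPM in DMSO and 16.9, 15.5 and 16.3 CPM in palbociclib, with a log2 change of -0.16 (SE 0.104, edgeR adjusted p = 0.341). The TIPIN peak (chr15:66356244-66357277), at the inner start printed above, measured 63.2, 67.9 and 64.5 CPM in DMSO and 59.4, 60.7 and 58.5 CPM in palbociclib, with a log2 change of -0.13 (SE 0.0607, edgeR adjusted p = 0.147). In both, each palbociclib library lay below the DMSO libraries without passing the test. The outer start of TIPIN lies 195 bases from the start of MAP2K1 on the opposite strand. The ATR peak (chr3:142578383-142579359) measured 112, 99.2 and 106 CPM in DMSO and 101, 102 and 103 CPM in palbociclib, with overlapping groups and a log2 change of -0.05 (SE 0.0527, edgeR adjusted p = 0.625).

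**Figure D4:**
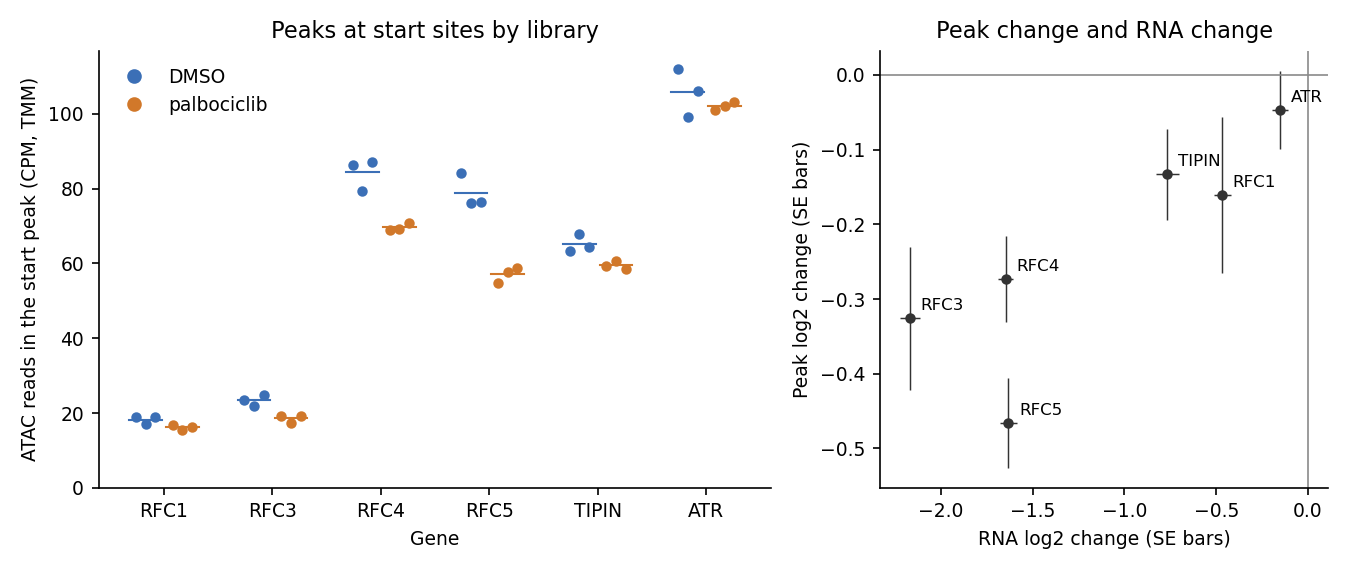
ATAC reads in the peak at the start of 6 members in each library (left, CPM after TMM scaling, lines for means), and the log2 change of that peak against the log2 change of RNA with SE bars (right). RFC3, RFC4 and RFC5 lie at the lower left, with RNA changes of -1.63 or below and peak changes of -0.27 or below, and ATR lies near 0 on both axes.

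Across these 6 genes the RNA changes ran from -2.17 to -0.15 and the peak changes from -0.47 to -0.05 on the log2 scale. The RFC3 peak, whose gene had the largest RNA change of the 6, did not have the largest peak change, which was that of RFC5. Peaks within the genes of RFC3, CLSPN, TIMELESS and ATR, 4 in all, gave 0 calls by edgeR and 0 by DESeq2, and none had an unadjusted p under 0.05. A peak beyond the end of CLSPN (chr1:35718524-35719303) changed by -0.24 on that scale (edgeR adjusted p = 0.0634) and passed without palbociclib replicate 3 (edgeR adjusted p = 0.0388).

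Splicing of the members was read from the deposited tables of alternative events, which list 155 events in these genes, 108 of them skipped exons. The inclusion level is computed from reads corrected for length: for most event types it is the share of the form that holds the tested exon or segment, and for a mutually exclusive pair it is the share of the 1 exon against the other. Of the 155 events, 40 were tested, those with 20 or more reads per library on average and with 5% or more of the reads in the rarer form, and 1 was called by edgeR's quasi-likelihood test. Over all 37445 events tested, 0.355% were called.

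The called event concerned a CHEK1 exon of 224 bases (chr11:125627607-125627830), whose length is not a multiple of 3. It was listed as a mutually exclusive pair with the exon at chr11:125629232-125629296. Its inclusion level was 0.588, 0.599 and 0.605 in DMSO and 0.707, 0.693 and 0.653 in palbociclib. The groups did not overlap, and palbociclib replicate 3 was nearest to DMSO. The means were 0.597 ± 0.0089 and 0.684 ± 0.028 (SD, n = 3), a log2 odds change of 0.54 (SE 0.121, edgeR adjusted p = 0.0309). The authors' deposited table gives it an FDR of 0.0293.

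The event had 582 reads in the palbociclib library with fewest. The call was lost by DESeq2 (adjusted p = 0.117), without the minimum on the minor form (edgeR adjusted p = 0.215) and without any library but palbociclib replicate 3 (edgeR adjusted p 0.0806 to 0.202). The exon stood in 2 other tested events, which share its reads and so are not independent. As a skipped exon its inclusion was 0.787, 0.818 and 0.838 in DMSO and 0.872, 0.867 and 0.861 in palbociclib, again with no overlap (edgeR adjusted p = 0.302). In that listing the exon directly downstream starts where the partner exon of the called pair starts. Its inclusion form thus joins both exons, so the called change is not shown to be a choice of 1 exon over the other. In another pair listed as exclusive the mean went from 0.553 to 0.632 (edgeR adjusted p = 0.237).

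Of the 40 tested events 9 (22.5%) had an unadjusted p under 0.05 by edgeR, against 8.53% of all events tested, and 3 of those 9 were the CHEK1 exon. The groups did not overlap in 9 of 40, against 13.7% of all events tested. The other 6 were chosen for mention after their values were seen. An alternative 3′ splice site of RFC2 went from a mean inclusion of 0.044 to 0.02 (edgeR adjusted p = 0.283), and an exon of ATR (chr3:142450466-142450602) from 0.073 to 0.043 (edgeR adjusted p = 0.325).

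A retained intron of ATR went from 0.035 to 0.019 (edgeR adjusted p = 0.359) and an exclusive exon of RFC2 from 0.101 to 0.072 (edgeR adjusted p = 0.399). An alternative 3′ splice site of TIMELESS went from 0.824 to 0.868 (edgeR adjusted p = 0.528) and an RFC5 exon (chr12:118017690-118018053) from 0.253 to 0.197 (edgeR adjusted p = 0.562). Both RFC2 events involve the segment chr7:74249012-74249220 and so are not independent. None of these 6 passed the adjusted threshold. RFC3 had 1 listed event, which was not tested because its rarer form had too few reads, and CLSPN had 1 tested event, with means of 0.454 and 0.465 (edgeR adjusted p = 0.997).

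**Figure D5:**
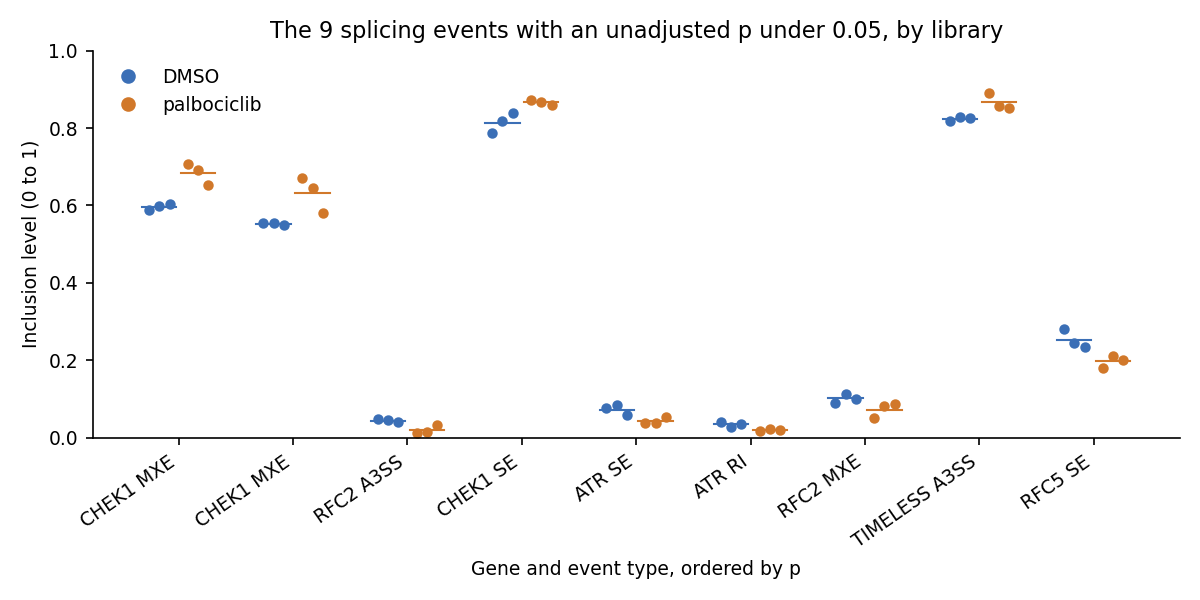
Inclusion level (0 to 1) in each library for the 9 tested member events with an unadjusted p under 0.05, ordered by p, with lines for group means. MXE is a mutually exclusive exon, A3SS an alternative 3′ splice site, SE a skipped exon and RI a retained intron; the leading CHEK1 event moves from 0.597 to 0.684.

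Per the authors' deposited tables, an FDR under 0.05 was given to 9 of the 155 listed member events, against 2.47% of all events listed. Only 4 of those 9 met the read minimums used here. The smallest FDR, 0.00545, belonged to an alternative 5′ splice site of ATR whose skipping reads were 0, 0 and 1 in DMSO and 0, 2 and 10 in palbociclib, beside 289 to 370 inclusion reads per library. That event thus rests on palbociclib replicate 3. A skipped RFC2 exon (chr7:74249012-74249118, FDR 0.00917) had 11, 33 and 12 skipping reads in DMSO and 0, 4 and 1 in palbociclib, against 476 to 677 and 133 to 202 inclusion reads. Here the skipping form was the rare form in all 6 libraries. A further ATR 5′ splice site (FDR 0.00607) had the same skipping reads as the ATR event above. A further skipped RFC2 exon (FDR 0.0107) likewise had those of the RFC2 event. The 9 events are thus not independent.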

How the data were processed

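The members and gene lists were chosen with earlier results of these data known. RNA values were FPKM deposited by the authors. The submitters' processing notes list STAR 2.7.10b, Salmon 1.10.2, DESeq2 1.44.0 and GRCh38, with no role or order; the annotation and counting strand are not given in the sources used here. The median ratio to the geometric mean was 1.0031 in all 6 columns, so every change is set against the typical gene. The deposited DESeq2 table gave the authors' mean normalized counts (a signal per gene, 951 for TIPIN to 11008 for TIMELESS), log2 fold changes and adjusted p-values. Splicing tables held rMATS inclusion and skipping reads and FDR values (adjusted p-values), per the file headers; library order within a cell follows the labels. ATAC values were read counts over 1 common peak set, made with featureCounts on deduplicated alignments, per the file headers.

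From these, limma 3.58.1 with an intensity trend was run on log2(FPKM + 1) over genes with a mean of at least 0.5 FPKM. Peak counts (12.83 to 18.25 M reads in peaks per library) and splicing reads (52.24 to 75.37 M per library in skipped exon events, where a read can count in several events) were tested with edgeR 4.0.16 (quasi-likelihood, TMM for peaks, a library term for splicing) in R 4.3.3. An adjusted p under 0.05 was called. Ratios between members were compared by exact permutation over libraries. DESeq2 1.42.0, other scalings, minimums and pseudocounts, a replicate term and leaving out each library were the alternatives. Named genes are the 10 members, the 6 lists, called splicing events, all start peaks and the 5 nearest profiles. Promoters and gene positions came from RefSeq (GRCh38.p14). The scripts were tested on simulated data. Values of 1 list gene and 1 marker gene are not reported here, but the list counts and medians include the former. P-values measure the spread between libraries labelled as replicates, which only the ATAC-seq titles call biological.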

Additional observations from a re-analysis of the deposited data

How the results depend on the processing

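Across the RNA alternatives 9 members were always called lower, and ATR lost its call in the 6 settings given above. The pathway genes called higher were 1 as reported and 3 with quantile normalization and with median centring. The count of member splicing events called was 1 as reported, 0 without the minor-form minimum, 0 by DESeq2, and 0 to 1 when each library was left out. Over all events tested, 133 were called as reported, 44 without the minor-form minimum, 63 by DESeq2, 248 with a replicate block and 60 to 128 when each library was left out. Start peaks called lower were 3 with DESeq2's test, DESeq2's size factors, library totals and a smoothed offset, and 2 to 3 when each library was left out. Dropping the minimum on peak counts added no peak to the test, and windows of 500 bases and 2 kb gave the same counts, so these settings say nothing of stability. The 3 RNA ratios kept their direction in every alternative run: 1.41 to 1.45 for RFC1, -1.78 to -1.72 for CHEK1 and -3.34 to -3.12 for CLSPN when each library was left out.

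Replicate numbers are not stated to pair the libraries. Same-numbered deviations correlated at 0.106, -0.00513 and 0.0879 for RNA and at 0.00523, 0.0389 and -0.0251 for ATAC. Differently numbered ones ran from -0.139 to 0.0509 for RNA and from -0.0657 to 0.0573 for ATAC. So few values cannot decide whether the libraries were paired. With the replicate block the counts were again 10 members lower, 31 pathway genes lower, 1 higher, 3 start peaks lower and 1 splicing event; the ratio differences were 1.43, -1.75 and -3.25, each with an exact sign-flip p of 0.25, the smallest that 3 pairs can give.

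With 3 libraries a group, exact tests cannot pass 0.05. FPKM carry no depth of their own, and skipping reads of rare forms are too few to compare between libraries.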
